A study of Homo sapiens with 12 samples.

Results

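The interferon regulatory factor (IRF) family comprises transcription factors that share a DNA-binding domain and recognise repeats of GAAA in the control regions of interferon-responsive genes. Its 8 members described here were IRF1, IRF2, IRF3, IRF4, IRF5, IRF7, IRF8 and IRF9, chosen by gene symbol from the 44700 genes of the count tables. The libraries came from MALME-3M and SK-MEL-5, human melanoma cell lines labelled as wild type. The groups were MALME-3M given interferon-γ (IFN-γ) at 200 ng/mL for 24 h, untreated MALME-3M, SK-MEL-5 given IFN-γ at 150 ng/mL for 24 h, and untreated SK-MEL-5, with 3 libraries each. Per the labels, treatment began when the cells were seeded into triplicate wells, so p-values measure the spread between wells, which may be technical. Dose and culture medium differed along with the line, and their parts in any difference between the lines cannot be told apart.

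IFN-γ binds a receptor that activates the kinases JAK1 and JAK2, which phosphorylate STAT proteins. STAT dimers bind the GAS element, and IRF1 is a textbook gene switched on this way. IRF2 binds the same DNA sites as IRF1 and is known mostly for limiting IRF1 action. IRF9 is the DNA-binding subunit of ISGF3, a complex with STAT proteins formed after type I or III interferon. IRF3 and IRF7 are kept latent until kinases such as TBK1 phosphorylate them after nucleic acid sensing, and IRF5 is activated downstream of MYD88. IRF4 and IRF8 are best known from lymphoid and myeloid cells, and IRF4 also acts in pigment cells, where it controls the tyrosinase gene together with MITF.

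Sequence upstream of the gene start is shown for IRF1 and IRF9, since these were the members whose RefSeq promoter windows held a GAS match, written TTCNNNGAA. The sequences are from RefSeq on GRCh38.p14, 5′ to 3′ on the gene's strand, with the match in capitals. The IRF1 sequence is chr5:132490799-132491023 on the minus strand, and the IRF9 sequence is chr14:24161192-24161220 on the plus strand.
IRF1: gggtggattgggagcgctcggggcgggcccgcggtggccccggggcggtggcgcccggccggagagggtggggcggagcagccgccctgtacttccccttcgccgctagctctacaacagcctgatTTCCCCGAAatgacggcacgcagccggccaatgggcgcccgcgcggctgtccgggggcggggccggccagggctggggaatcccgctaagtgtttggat
IRF9: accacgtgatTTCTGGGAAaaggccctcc
The IRF1 match, TTCCCCGAA, lay at -124 to -116 from the RefSeq start. The IRF9 match, TTCTGGGAA, lay at -63 to -55 from the RefSeq start, inside the gene span that GENCODE 29 gives for IRF9. Windows were available for 5 of the 8 members (IRF1, IRF4, IRF5, IRF8 and IRF9). All IRF5 and IRF8 windows lay inside the spans that GENCODE 29 gives for these genes, and the IRF8 windows belonged to alternative starts. Of 35116 RefSeq promoters searched over 250 bases on both strands, 6.57% held the GAS letters. The ISRE core, GAAA given 2 times with 2 bases of any kind between, was in 3.02% of them and in no window of a member. A match is a description of these letters and not a bound site.

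Gene counts totalled 15514412 to 22921184 per library. Levels are given as counts per 1e6 gene counts (CPM), scaled by TMM, and calls as an adjusted p under 0.05 in edgeR's quasi-likelihood test over 15810 genes. All 8 members passed the filter on low counts, but IRF7, IRF8 and IRF9 passed it through their IFN-γ libraries, so the counts of members called below are descriptions. In MALME-3M, 7 members were higher after IFN-γ and none lower, where 18.3% of genes were called, 9.51% higher and 8.77% lower. The IFN-γ and untreated libraries did not overlap for these 7 members, as for 33.1% of genes. In SK-MEL-5, 6 members were higher and none lower, where 13.0% of genes were called, 5.98% higher and 7.05% lower. The libraries did not overlap for these 6 members, as for 29.1% of genes. The median log2 fold change of the members was 1.34 in MALME-3M and 1.75 in SK-MEL-5, beside 0.00 and -0.03 over all genes tested.

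**Figure D1:**
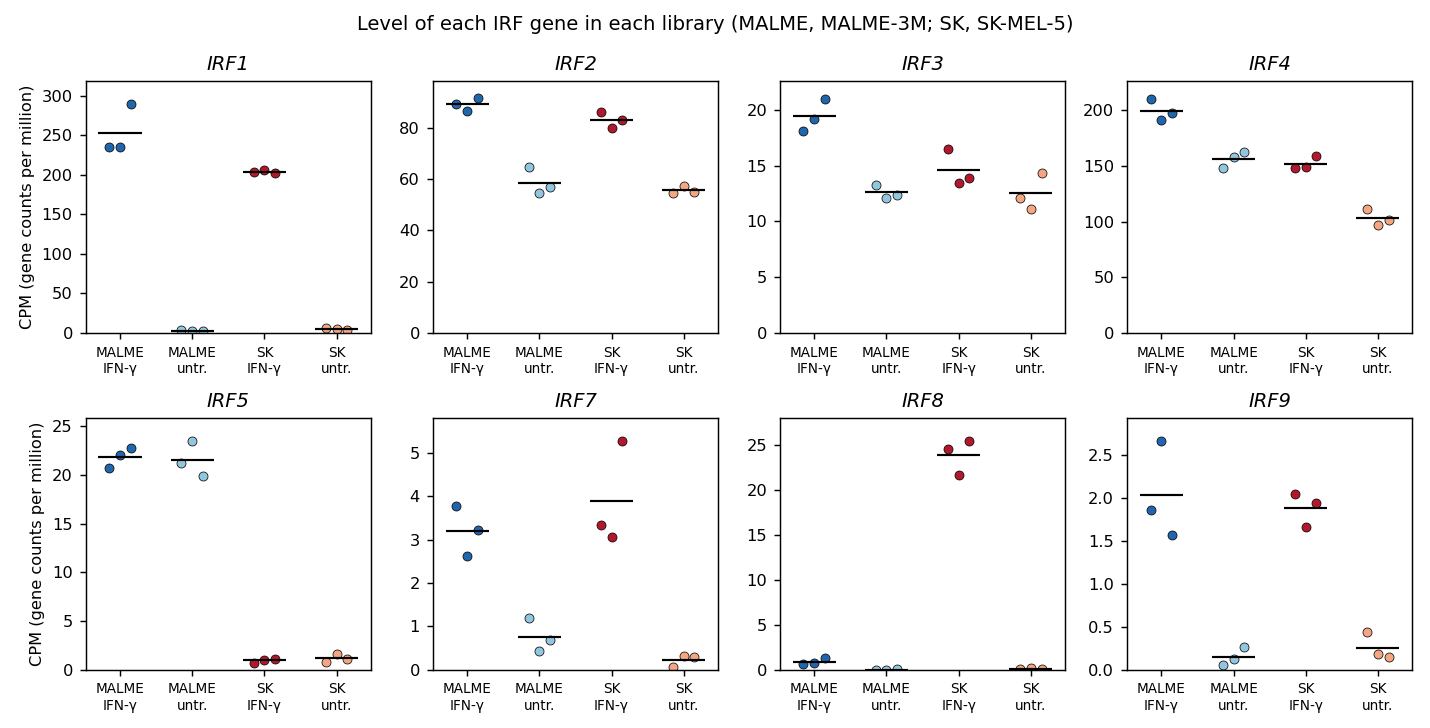
CPM of the 8 IRF genes (vertical axes, from 0) in each of the 12 libraries, by line and treatment. Points are libraries and bars are group means. IRF1 was above 200 CPM in every IFN-γ library, IRF5 was above 19 CPM only in MALME-3M, and IRF8 was above 20 CPM only in SK-MEL-5 given IFN-γ.

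IRF1 rose strongly in both lines, and with IFN-γ it was the member with the highest level per transcript length. The gene lies on chromosome 5, 132481609 to 132490798, minus strand (GRCh38, GENCODE 29). MALME-3M libraries had 235, 235 and 289 CPM with IFN-γ, against 3.55, 2.83 and 2.45 CPM untreated. SK-MEL-5 libraries had 204, 206 and 202 CPM with IFN-γ, against 5.91, 4.76 and 4.46 CPM untreated. The groups did not overlap in either line. The log2 fold change was 6.43 ± 0.12 (SE, edgeR adjusted p = 3.45e-18) in MALME-3M and 5.35 ± 0.11 (adjusted p = 1.36e-17) in SK-MEL-5. The change was larger in MALME-3M by 1.08 ± 0.17 on the log2 scale (adjusted p = 0.000541), the only difference between the lines called among the members, where 4.46% of genes were called, 2.67% in this direction. From transcript estimates this difference was 0.96 with an adjusted p of 0.298. Untreated MALME-3M was lower than untreated SK-MEL-5 (log2 fold change -0.77 ± 0.15, adjusted p = 0.000116), whereas with IFN-γ MALME-3M was higher than SK-MEL-5 (0.31 ± 0.082, adjusted p = 0.00246). Both of these calls were lost from transcript estimates, with -0.70 (adjusted p = 0.0739) and 0.26 (adjusted p = 0.186).

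Reads of C5orf56, which overlaps IRF1 on the opposite strand, also rose. C5orf56 averaged 15.5 ± 0.78 CPM with IFN-γ and 4.1 ± 0.33 CPM untreated in MALME-3M (SD, n = 3 each), and 14.4 ± 2.3 CPM with IFN-γ and 3.36 ± 0.67 CPM untreated in SK-MEL-5. Its log2 fold changes were 1.92 ± 0.15 (edgeR adjusted p = 1.85e-08) and 2.11 ± 0.15 (adjusted p = 6.66e-09). The strand setting of the counting is not given in the sources used here, so reads of the overlapping genes cannot be told apart.

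IRF2, which had more counts than IRF1 before treatment, rose modestly in both lines. It lies on chromosome 4, 184387713 to 184474580, minus strand. MALME-3M libraries had 89.3, 86.5 and 91.7 CPM with IFN-γ, against 64.6, 54.4 and 56.8 CPM untreated. SK-MEL-5 libraries had 86.2, 79.9 and 83.2 CPM with IFN-γ, against 54.4, 57.4 and 55.1 CPM untreated. Every IFN-γ library was above every untreated one in its line. The log2 fold changes were 0.61 ± 0.061 (SE, edgeR adjusted p = 5.66e-07) in MALME-3M and 0.58 ± 0.061 (adjusted p = 1.14e-06) in SK-MEL-5. The difference between these changes was 0.03, with a 95% interval of -0.15 to 0.21 (adjusted p = 0.94).

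IRF2 had fewer counts than IRF1 after IFN-γ and more in untreated cells. IRF1 counts divided by IRF2 counts were 2.63, 2.72 and 3.15 in MALME-3M libraries with IFN-γ, against 0.0549, 0.0521 and 0.043 untreated. In SK-MEL-5 the ratios were 2.36, 2.58 and 2.43 with IFN-γ, against 0.109, 0.083 and 0.081 untreated. IRF1 exceeded IRF2 in each treated library and IRF2 exceeded IRF1 in each untreated one. Group means were 2.83 ± 0.28 with IFN-γ and 0.05 ± 0.0062 untreated in MALME-3M, and 2.46 ± 0.11 with IFN-γ and 0.0909 ± 0.015 untreated in SK-MEL-5 (SD, n = 3 each). The smallest two-sided exact permutation p that 3 against 3 libraries allow is 0.10. A ratio of TPM (transcripts per 1e6 transcripts, a level per transcript length) gave 2.77 with IFN-γ and 0.0519 untreated in MALME-3M, and 2.3 and 0.0942 in SK-MEL-5.

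**Figure D2:**
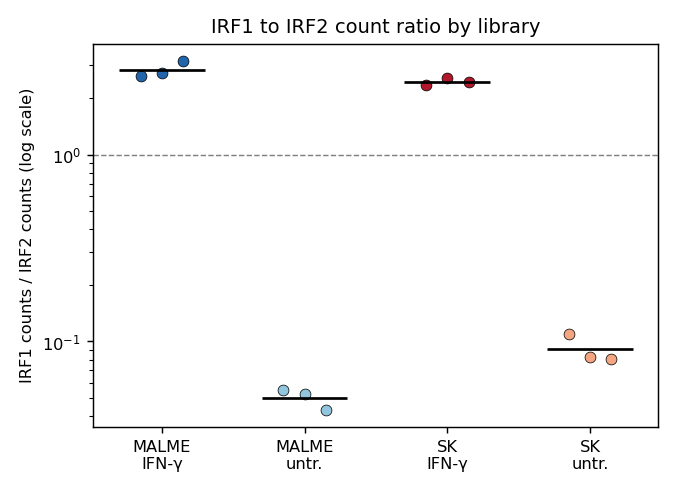
IRF1 counts divided by IRF2 counts (log axis) in each library, by line and treatment. Points are libraries, bars are group means, and the dashed line marks equal counts. IFN-γ libraries lie at 2.36 to 3.15 and untreated ones at 0.043 to 0.109.

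IRF9 rose in both lines, and STAT2, a subunit of ISGF3, rose with it. IRF9 lies on chromosome 14, 24161053 to 24166565, plus strand. MALME-3M libraries had 31, 57 and 35 counts with IFN-γ, against 1, 2 and 5 untreated. SK-MEL-5 libraries had 42, 31 and 30 counts with IFN-γ, against 7, 4 and 3 untreated. The groups did not overlap, but each untreated library had fewer than 10 counts. The log2 fold change was 3.69 ± 0.48 (SE, edgeR adjusted p = 1.64e-05) in MALME-3M and 2.92 ± 0.44 (adjusted p = 0.000114) in SK-MEL-5. Without untreated MALME-3M replicate 3 the MALME-3M value was 4.4. The difference of the changes was 0.77 ± 0.73 (adjusted p = 0.665).

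The gene counts of IRF9 were far below its transcript estimates. Over all libraries, estimated counts were 2202 and gene counts 248, a ratio of 8.88, where the median ratio over 13113 tested genes was 0.416 and 1.14% of genes had a ratio as high or higher. For the other members this ratio was 0.325 to 0.568. In TPM, IRF9 had 48.8, 57.6 and 59.5 with IFN-γ and 5.48, 9.88 and 7.44 untreated in MALME-3M libraries. In SK-MEL-5 it had 49.9, 49 and 32.1 TPM with IFN-γ and 5.72, 10.8 and 6.36 TPM untreated. On this scale too the groups did not overlap, and the levels per length placed IRF9 among the higher members after IFN-γ. From estimated counts the log2 fold changes were 2.83 (adjusted p = 8.64e-05) in MALME-3M and 2.66 (adjusted p = 0.000156) in SK-MEL-5. RNF31, which ends 391 bp upstream of IRF9 on the same strand, had 11 gene counts and 2117 estimated counts. GENCODE 29 lists the gene AL136295.5, which overlaps IRF9 on the same strand and is not a row of the count table, and its part in the low counts was not tested.

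**Figure D3:**
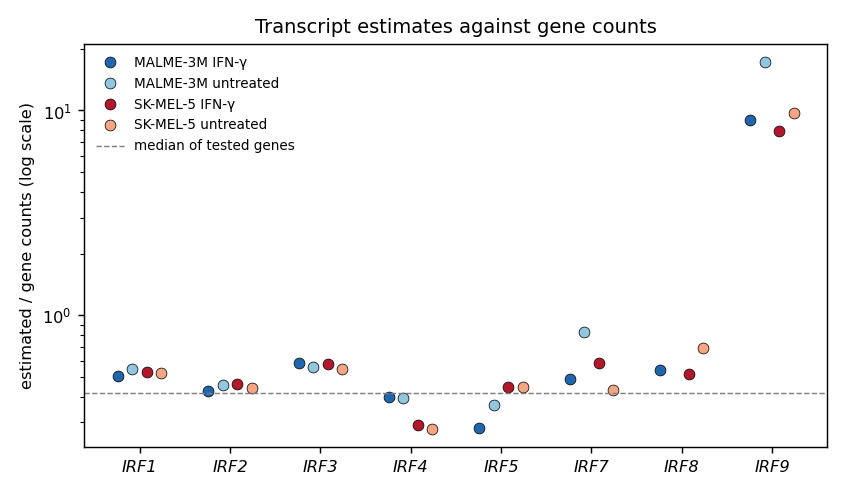
Summed estimated counts of annotated transcripts divided by summed gene counts (log axis) for each IRF gene in each group. Points are groups of 3 libraries, the dashed line is the median of tested genes (0.416), and IRF8 in untreated MALME-3M has no point because its estimate was 0. IRF9 stands apart, with an overall ratio of 8.88.

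Of the latent factors of nucleic acid sensing, IRF3 rose in MALME-3M and IRF7 rose in both lines. IRF3 lies on chromosome 19, 49659569 to 49665875, minus strand. IRF3 had 18.1, 19.2 and 21 CPM in MALME-3M with IFN-γ, against 13.3, 12.1 and 12.4 CPM untreated. In SK-MEL-5 it had 16.5, 13.4 and 13.9 CPM with IFN-γ, against 12.1, 11.1 and 14.3 CPM untreated. IRF3 groups were apart in MALME-3M and overlapped in SK-MEL-5. The log2 fold change was 0.63 ± 0.12 (SE, edgeR adjusted p = 0.000647) in MALME-3M and 0.22 ± 0.12 (95% interval -0.02 to 0.47, adjusted p = 0.251) in SK-MEL-5. The difference itself, 0.40 ± 0.16, was not called (adjusted p = 0.21). BCL2L12, on the opposite strand and overlapping IRF3, was not called in MALME-3M (adjusted p = 1) or SK-MEL-5 (log2 fold change 0.56, adjusted p = 0.0876).

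IRF7 lies on chromosome 11, 612553 to 615999, minus strand, and was one of the low members. MALME-3M libraries had 63, 56 and 72 counts with IFN-γ, against 20, 7 and 13 untreated. SK-MEL-5 libraries had 68, 57 and 81 counts with IFN-γ, against 1, 7 and 6 untreated. The treated libraries lay above the untreated ones in both lines. The log2 fold change was 2.06 ± 0.37 (SE, edgeR adjusted p = 0.000466) in MALME-3M and 3.97 ± 0.43 (adjusted p = 1.76e-06) in SK-MEL-5. The difference between the changes was -1.92 ± 0.61 with an adjusted p of 0.0876. It passed the threshold without the filter on low counts (adjusted p = 0.0171) and with DESeq2's Wald test (-1.97, adjusted p = 0.0257). From transcript estimates the MALME-3M change was 1.34 and not called (adjusted p = 0.112). Untreated MALME-3M was higher than untreated SK-MEL-5 (log2 fold change 1.65 ± 0.52, adjusted p = 0.00866), but without untreated MALME-3M replicate 1 this was 1.19 (adjusted p = 0.0704).

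IRF5 was higher in MALME-3M than in SK-MEL-5, and IFN-γ gave no called change in either line. It lies on chromosome 7, 128937612 to 128950035, plus strand. MALME-3M libraries had 20.7, 22 and 22.8 CPM with IFN-γ, against 21.2, 23.5 and 19.9 CPM untreated. SK-MEL-5 libraries had 0.734, 1.02 and 1.11 CPM with IFN-γ, against 0.827, 1.65 and 1.12 CPM untreated. Treated and untreated libraries overlapped in both lines, while every MALME-3M library was above every SK-MEL-5 library. MALME-3M exceeded SK-MEL-5 by a log2 fold change of 4.53 ± 0.18 with IFN-γ (SE, edgeR adjusted p = 4.31e-14) and 4.12 ± 0.17 untreated (adjusted p = 8.42e-14). The IFN-γ change was 0.02 (95% interval -0.25 to 0.29, adjusted p = 0.947) in MALME-3M and -0.39 (95% interval -0.91 to 0.14, adjusted p = 0.381) in SK-MEL-5.

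IRF8 was induced in both lines and to very different levels. It lies on chromosome 16, 85898803 to 85922609, plus strand. MALME-3M libraries had 10, 15 and 30 counts with IFN-γ, against 0, 0 and 1 untreated. SK-MEL-5 libraries had 501, 401 and 390 counts with IFN-γ, against 1, 4 and 1 untreated. IRF8 was thus at or near 0 in all untreated libraries, with 1 count in MALME-3M and 6 counts in SK-MEL-5 in total. In MALME-3M the ratio of depth-scaled counts, 55 against 1, was 47.8, with a 95% Clopper-Pearson interval of 8.23 to 1923 that covers counting error only. The fitted log2 fold change was 5.15 ± 0.69 (SE, edgeR adjusted p = 2.31e-05) in MALME-3M and 7.76 ± 0.32 (adjusted p = 8.73e-13) in SK-MEL-5. These fits rest on few untreated counts: the MALME-3M value was 7.09 without untreated replicate 3, and the SK-MEL-5 value 8.56 without untreated replicate 2. The difference of the changes was -2.61, with a 95% interval of -7.08 to 1.86 (adjusted p = 0.604). With IFN-γ, MALME-3M was lower than SK-MEL-5 by a log2 fold change of -4.71 ± 0.23 (adjusted p = 7.95e-13).

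IRF4 was high before treatment and rose modestly. It lies on chromosome 6, 391739 to 411447, plus strand. MALME-3M libraries had 210, 191 and 198 CPM with IFN-γ, against 148, 158 and 163 CPM untreated. SK-MEL-5 libraries had 148, 149 and 159 CPM with IFN-γ, against 111, 97.5 and 102 CPM untreated. The treated libraries were above the untreated ones within each line. The log2 fold change was 0.36 ± 0.059 (SE, edgeR adjusted p = 0.000219) in MALME-3M and 0.55 ± 0.059 (adjusted p = 1.68e-06) in SK-MEL-5. Transcript estimates gave 0.40 (adjusted p = 0.296) and 0.63 (adjusted p = 0.124), so these calls were lost there. The transcript IRF4-201, protein coding and 5331 nt long, held 71.7% of IRF4 TPM with IFN-γ and 70.6% untreated in MALME-3M, and 68.4% and 66.9% in SK-MEL-5. MALME-3M was higher than SK-MEL-5 with IFN-γ (0.40 ± 0.059, adjusted p = 6.35e-06) and untreated (0.59, adjusted p = 3.73e-08).

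**Figure D4:**
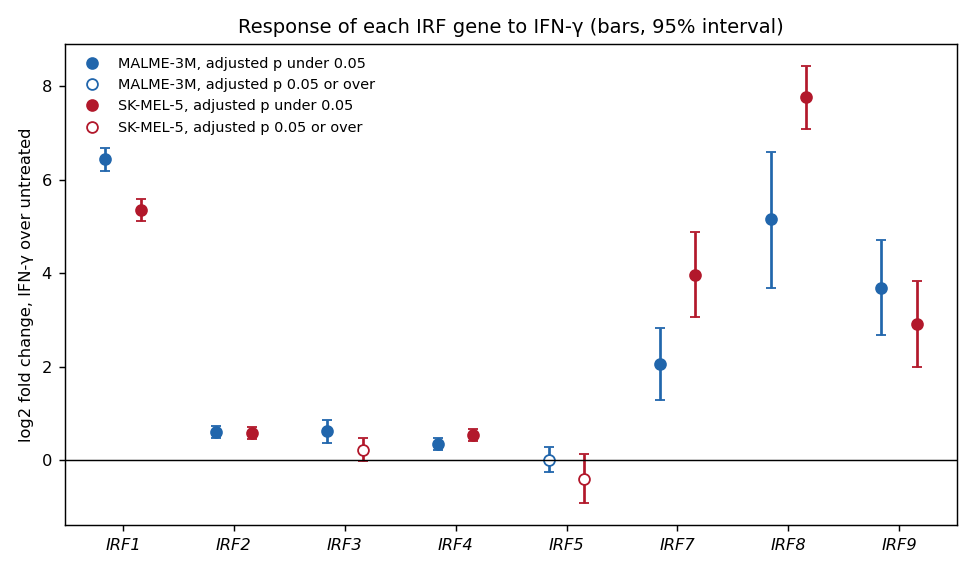
Log2 fold change of each IRF gene, IFN-γ over untreated, in MALME-3M (blue) and SK-MEL-5 (red), with bars for the 95% interval and open points for genes not called. IRF1 changed by 6.43 in MALME-3M and 5.35 in SK-MEL-5, while the intervals of IRF5 include 0 in both lines.

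Markers of leukocytes, in which IRF4, IRF5 and IRF8 are best known, were low apart from ITGAX, a myeloid integrin. The 10 markers summed to 48.2 to 51.7 CPM with IFN-γ and 42.1 to 50.3 CPM untreated in MALME-3M, and to 1.11 to 1.71 CPM with IFN-γ and 1.4 to 1.69 CPM untreated in SK-MEL-5. ITGAX made up nearly all of the MALME-3M sum, at 48.3 ± 1.8 CPM with IFN-γ and 46.5 ± 4.5 CPM untreated (SD, n = 3 each). PTPRC, the pan-leukocyte phosphatase CD45, had 0 counts in MALME-3M, and 39 counts with IFN-γ and 36 untreated in SK-MEL-5. Of the 3 markers tested, only ITGAM was called, in MALME-3M (log2 fold change 1.34 ± 0.43, edgeR adjusted p = 0.0343). SPI1, the partner of IRF4 and IRF8 in blood cells, had 2 counts with IFN-γ and 1 untreated in MALME-3M, and 5 and 0 in SK-MEL-5. The part of these cells in the IRF4, IRF5 and IRF8 results was not tested. In bulk samples fewer cells of a type and less RNA per cell cannot be told apart. Of 5 fibroblast markers tested, COL1A2 rose in MALME-3M (1.31 ± 0.3, adjusted p = 0.00547), and LUM fell in MALME-3M (-0.63 ± 0.11, adjusted p = 0.000366) and SK-MEL-5 (-0.36 ± 0.082, adjusted p = 0.0051). Median log2 fold changes were 0.05 and 0.10 for the leukocyte markers and 0.99 and -0.25 for the fibroblast markers, in MALME-3M and SK-MEL-5 in that order. The 0.99 was the value of COL1A1, with 5 counts with IFN-γ and 2 untreated (SE 1.2, edgeR adjusted p = 0.647). The 7 fibroblast markers summed to 15.5 to 17.9 CPM with IFN-γ and 19.3 to 20.2 CPM untreated in MALME-3M. In SK-MEL-5 they summed to 130 to 136 CPM with IFN-γ and 162 to 189 CPM untreated. LUM made up most of the SK-MEL-5 sum, at 125 ± 2.7 CPM with IFN-γ and 161 ± 15 CPM untreated (SD, n = 3 each). COL1A1 averaged 0.828 and 0.718 CPM there.

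Per transcript length, IRF1 led the family with IFN-γ and IRF2 in untreated cells, the latter partly through short transcripts. Short transcripts also held large shares of other members. In MALME-3M with IFN-γ, single transcripts of 832, 595 and 413 nt held 50.5%, 76.9% and 48.5% of IRF1, IRF5 and IRF3 TPM, respectively. The longer IRF1-202 (2061 nt) had 63.3 TPM in that group, beside 33.8 for IRF2-201 and 37.3 for IRF4-201. In untreated MALME-3M, IRF2-205 (498 nt) and IRF2-202 (339 nt) held 35% and 24.7% of IRF2 TPM. They had 188 and 88 of 1398 estimated counts, and the IRF2-205 share was 15.2% to 52% between libraries. The longer IRF2-201 (2303 nt) had 23.3 TPM there, beside 28.1 for IRF4-201. In untreated SK-MEL-5 these 2 transcripts had 23 and 13.9 TPM. In SK-MEL-5 with IFN-γ, a transcript of 531 nt held 69.5% of IRF8 TPM. The longer IRF8-201 (3030 nt) had 6.59 TPM in that group, beside 20.7 for IRF4-201. Mean CPM there was 23.8 for IRF8 and 152 for IRF4, although mean TPM was 33.4 and 30.2. In MALME-3M with IFN-γ the order of mean TPM was IRF1 (285), IRF2 (103), IRF9 (55.3), IRF4 (52), IRF3 (42), IRF5 (24.7), IRF7 (2.78) and IRF8 (1.56). The ranges of IRF9 and IRF4 overlapped there. In untreated MALME-3M the order was IRF2 (69.3), IRF4 (39.5), IRF5 (26), IRF3 (22.7), IRF9 (7.6), IRF1 (3.65) and IRF7 (1.13), with IRF8 listed at 0. IRF5 overlapped IRF3, and IRF9 overlapped IRF1. In SK-MEL-5 with IFN-γ it was IRF1 (238), IRF2 (104), IRF9 (43.7), IRF8 (33.4), IRF4 (30.2), IRF3 (24.4), IRF7 (4.05) and IRF5 (1.54), and IRF8 overlapped both IRF9 and IRF4. In untreated SK-MEL-5 it was IRF2 (68.5), IRF3 (24.4), IRF4 (21), IRF9 (7.61), IRF1 (6.45), IRF5 (2.26), IRF7 (0.252) and IRF8 (0.228), where IRF3 overlapped IRF4, IRF9 overlapped IRF1, and IRF7 overlapped IRF8. The summed TPM of the family was 566 ± 51 with IFN-γ and 170 ± 4.8 untreated in MALME-3M, and 480 ± 18 with IFN-γ and 131 ± 6.1 untreated in SK-MEL-5 (SD, n = 3 each). IRF1 made up 50.2% of this sum with IFN-γ and 2.16% untreated in MALME-3M, and 49.7% with IFN-γ and 4.95% untreated in SK-MEL-5.

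**Figure D5:**
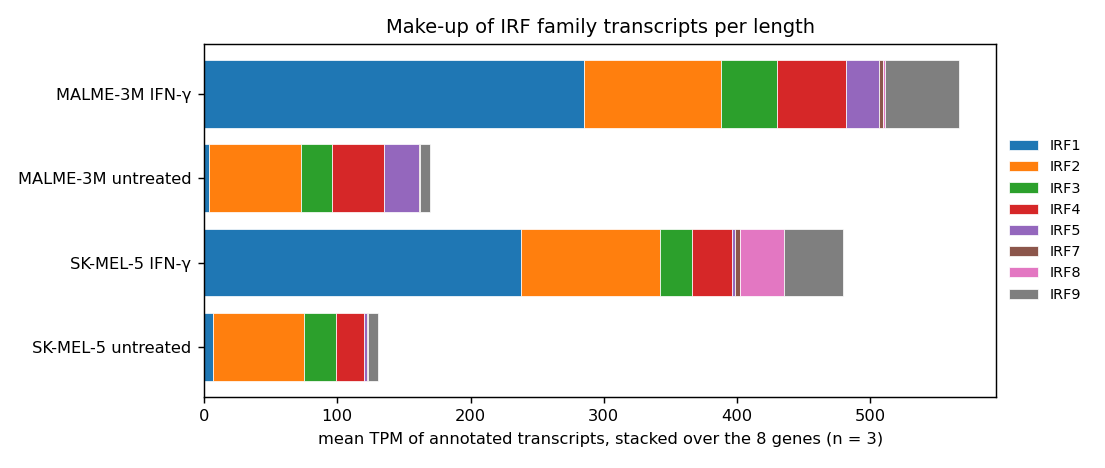
Mean TPM of annotated transcripts (horizontal axis), stacked over the 8 IRF genes, in each group of 3 libraries. The family sums to 566 with IFN-γ and 170 untreated in MALME-3M, and to 480 with IFN-γ and 131 untreated in SK-MEL-5.

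Between the lines, many genes differed, and a share of members below or near that of all genes did. With IFN-γ, 4 members were higher and 1 lower in MALME-3M than in SK-MEL-5, where 71.8% of genes were called, 35.4% higher and 36.4% lower. The libraries of the lines did not overlap for 6 members with IFN-γ, as for 74.6% of genes. Without treatment, 3 members were higher and 1 lower in MALME-3M, where 71.7% of genes were called, 34.5% higher and 37.2% lower, and 4 members did not overlap, as for 73.8% of genes. IRF2 was not called in either comparison, with log2 fold changes of 0.10 with IFN-γ (edgeR adjusted p = 0.138) and 0.08 untreated (adjusted p = 0.281). IRF3 was higher in MALME-3M with IFN-γ (0.41 ± 0.11, adjusted p = 0.00318), and its untreated value was 0.01 (adjusted p = 0.928). IRF9 values were 0.11 ± 0.33 with IFN-γ (adjusted p = 0.787) and -0.67 untreated (adjusted p = 0.37).

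The IFN-γ signalling genes that act upstream of IRF1 moved unevenly. Of 10 tested, 5 were higher and 0 lower in MALME-3M, and 6 were higher and 1 lower in SK-MEL-5. Over all genes tested, 9.51% were called higher and 8.77% lower in MALME-3M, and 5.98% and 7.05% in SK-MEL-5. The same shares stand beside the IFN-γ calls of the lists that follow. On the log2 scale, JAK2 rose by 0.76 and 0.44, STAT3 by 1.16 and 0.67, and the feedback inhibitors SOCS1 by 3.38 and 1.44 and SOCS3 by 1.92 and 1.18, in MALME-3M and SK-MEL-5 in that order. JAK1 was not called, at -0.11 (edgeR adjusted p = 0.248) in MALME-3M and -0.16 (adjusted p = 0.0941) in SK-MEL-5. The median log2 fold change of the list was 0.48 in MALME-3M and 0.30 in SK-MEL-5.

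Among ISGF3 partners and the receptors that lead to ISGF3, 3 of 7 tested genes were higher in MALME-3M and 4 of 7 in SK-MEL-5, with none lower and medians of 0.43 and 0.62 on the log2 scale. STAT2 rose by a log2 fold change of 1.84 ± 0.063 in MALME-3M and 2.02 ± 0.064 in SK-MEL-5 (edgeR adjusted p = 4.43e-14 and 1.22e-14). IFNAR2, a chain of the type I interferon receptor, rose by 0.43 and 1.02 in these lines, and the difference of -0.59 was called (adjusted p = 0.000375). IFNAR1 rose by 0.27 in SK-MEL-5 (adjusted p = 0.0178). Of 20 type I and III interferon genes listed, 7 were in the count table, IFNB1 included. These 7 had 0 counts in both IFN-γ groups and in untreated MALME-3M, and 3 counts in untreated SK-MEL-5. The other listed interferon genes had no row, so their levels are not known here.

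Of 14 activators of IRF3, IRF5 and IRF7, 4 were higher in MALME-3M, and 3 were higher and 1 lower in SK-MEL-5. Their median log2 fold changes were 0.21 and 0.04. The RNA sensor genes IFIH1 and DDX58 rose by log2 fold changes of 1.89 and 0.44 in MALME-3M and by 2.69 and 2.53 in SK-MEL-5. The difference between the lines was called for DDX58 (-2.09 ± 0.2, edgeR adjusted p = 1.91e-06) and IFIH1 (-0.79 ± 0.18, adjusted p = 0.0136). MYD88, the adaptor upstream of IRF5, rose by 0.71 and 0.67. TRAF3, a ubiquitin ligase of this signalling, fell in SK-MEL-5 (-0.29, adjusted p = 0.00183). TBK1, the IRF3 kinase, was not called in either line, at 0.07 (adjusted p = 0.463) and -0.04 (adjusted p = 0.745).

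Of 9 tested DNA-binding partners and cofactors, 3 were higher in each line, and 1 was lower in SK-MEL-5. Their median log2 fold changes were 0.13 in MALME-3M and 0.04 in SK-MEL-5. BATF2, a leucine zipper partner of IRFs, averaged 34.2 ± 3.6 CPM with IFN-γ and 0.457 ± 0.091 CPM untreated in MALME-3M, and 76.8 ± 3.8 CPM with IFN-γ and 0.578 ± 0.23 CPM untreated in SK-MEL-5. The log2 fold changes of BATF2 were 6.21 ± 0.17 and 6.98 ± 0.15 (edgeR adjusted p = 9.16e-16 and 3.77e-17). BATF3, of the same zipper family, rose by 4.74 ± 0.24 in MALME-3M and 1.39 ± 0.15 in SK-MEL-5, a called difference of 3.34 ± 0.3 (adjusted p = 9.38e-07). IRF2BPL rose by 0.44 and 0.25. KAT2B, an acetyltransferase, fell in SK-MEL-5 (-0.41, adjusted p = 1.72e-06) and was at 0.12 in MALME-3M (adjusted p = 0.0762).

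The textbook IRF1 target genes that were tested were called higher almost throughout. Of 13 listed, NOS2 did not pass the filter on low counts. It had 18 counts with IFN-γ and 15 untreated in MALME-3M, and 14 and 21 in SK-MEL-5. CXCL10 passed this filter through its IFN-γ libraries, so the counts of targets called are descriptions. Of 12 tested, all 12 were higher in MALME-3M and 11 in SK-MEL-5, with a median log2 fold change of 3.56 in each line, also with CXCL10 at its lower bound. The size of the change nevertheless differed between the lines for 7 of the 12, called smaller in MALME-3M for 5 and larger for 2, where 1.79% and 2.67% of all genes were called in these directions. Among them, BST2 (-4.66 ± 0.16, edgeR adjusted p = 2.29e-12) and CASP1 (-1.99 ± 0.16, adjusted p = 1.62e-07) changed less in MALME-3M, and GBP2 (2.44 ± 0.13, adjusted p = 7.2e-10) and CIITA (2.03 ± 0.23, adjusted p = 2.03e-05) changed more. CXCL10, a chemokine, had 249 counts with IFN-γ and 0 untreated in MALME-3M, and 65 and 0 in SK-MEL-5, which is at least 72.2-fold and 23.1-fold higher against a floor of 3 counts over the group. CIITA, the master regulator of MHC class II genes, rose by 6.36 ± 0.15 and 4.33 ± 0.14, and GBP1, a guanylate-binding protein gene, by 5.75 ± 0.14 and 5.8 ± 0.15. BST2, which encodes tetherin, rose by 2.23 ± 0.056 in MALME-3M and 6.89 ± 0.12 in SK-MEL-5, where its untreated total was 13 counts. BST2 averaged 218 CPM with IFN-γ and 46.5 CPM untreated in MALME-3M, and 27.5 and 0.233 CPM in SK-MEL-5. The gene not called in SK-MEL-5 was TNFSF10, at 1.33 (edgeR adjusted p = 0.251).

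Most textbook ISGF3 target genes also rose in both lines. In each line 11 of 12 were higher, with a median log2 fold change of 1.93 in MALME-3M and 3.52 in SK-MEL-5. The genes not called were IFIT1 in MALME-3M (0.32, edgeR adjusted p = 0.425) and MX1 in SK-MEL-5 (0.43, adjusted p = 0.136). Small called changes in MALME-3M were those of OAS3 and USP18, at 0.32 and 0.44, beside 1.96 and 2.06 in SK-MEL-5. For 8 of the 12 the change was called smaller in MALME-3M and for 1, MX1, larger (1.85 ± 0.22, edgeR adjusted p = 3.11e-05), beside 5 and 2 of the 12 IRF1 targets. Over all genes tested, 1.79% and 2.67% were called in these directions. The lists were not tested against each other. OAS2, an RNA sensing synthetase, rose by 3.03 ± 0.1 in MALME-3M and 6.16 ± 0.15 in SK-MEL-5, and IFI27 by 3.26 ± 0.093 and 5.61 ± 0.23, with 6 counts of IFI27 in untreated SK-MEL-5. IFIT3 rose by 3.01 ± 0.077 and 3.76 ± 0.078. IFI44L rose by 7.5 ± 0.17 in MALME-3M, and in SK-MEL-5 it had 678 counts with IFN-γ and 0 untreated, at least 241-fold higher against the same floor. In untreated cells, 10 of the 12 were higher in MALME-3M than in SK-MEL-5 and none lower, where 34.5% of all genes were higher. Of the 12 IRF1 targets, 7 were higher and 2 lower in this comparison. IRF9 itself was not called between the lines, treated or untreated.

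Pigment cell genes were described beside IRF4. Of 11 tested, 3 were higher and 4 lower in MALME-3M, and 1 was higher and 2 lower in SK-MEL-5. Their median log2 fold changes were -0.06 and -0.03. TFAP2A, a factor that acts with MITF, rose by log2 fold changes of 0.48 ± 0.046 and 0.49 ± 0.046 (edgeR adjusted p = 3.56e-07 and 2.36e-07). The pigment enzyme gene DCT fell (-0.47, adjusted p = 1.15e-05 in MALME-3M and -0.18, adjusted p = 0.0496 in SK-MEL-5), as did the transporter gene SLC45A2 (-0.39, adjusted p = 7.64e-05 and -0.18, adjusted p = 0.0433). OCA2 fell in MALME-3M (-0.33, adjusted p = 5.17e-05). MITF was not called, at 0.08 (adjusted p = 0.442) and 0.01 (adjusted p = 0.957), nor was TYR, at 0.11 (adjusted p = 0.113) and 0.03 (adjusted p = 0.725). The 11 genes summed to 5623 to 6066 CPM with IFN-γ and 6172 to 6180 CPM untreated in MALME-3M, and to 6489 to 6664 CPM with IFN-γ and 6770 to 7075 CPM untreated in SK-MEL-5.

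Genes among those whose levels followed each member most closely over the 12 libraries were found by Pearson's r of log2 CPM, as a description in which the libraries share 4 groups. For IRF1 these were GBP5 (0.992) and IFITM3 (0.992). For IRF2 they were PSME2 (0.981), ICAM1 (0.979) and BTN3A3 (0.977). IRF4 was followed by IFI27 (0.985), DHX58 (0.984) and COQ8B (0.979), and IRF8 by PARP10 (0.989), SOD2 (0.987) and IDO1 (0.987). IRF5, with its line pattern, was followed by HOXB2 (0.998), TRPV4 (0.997) and TFAP2C (0.997). For IRF7 they were CASP4 (0.961), IFI6 (0.957) and DDX60 (0.957), and for IRF9 USP30-AS1 (0.971) and GBP5 (0.966). IRF3 was followed less closely, by RAD9A (0.959), ZNF841 (0.939) and LINC00623 (0.938). Some of the genes named here had few or no counts in some groups. GBP5 averaged 0 CPM in untreated MALME-3M and 0.0741 CPM in untreated SK-MEL-5. HOXB2 averaged 0 CPM with IFN-γ and 0.0466 CPM untreated in SK-MEL-5. Among the members the closest pair was IRF1 and IRF2 (0.964).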

How the data were processed

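Total RNA of 12 libraries was sequenced as read pairs. The authors deposited raw read counts per gene, whole numbers without normalization, per the file headers of the HTSeq type. They also deposited an estimated count and a TPM value for each transcript, per the file headers of the kallisto type. Per the submitters' processing notes, the tools were HTSeq, kallisto, STAR, SAMtools and cutadapt, and the build hg38. The sources used here give neither the annotation nor the strand setting.

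Replicate numbers were assigned within each group in accession order, only to name libraries. Members were matched by symbol. Members and gene lists were chosen with earlier results of these data known. Named genes were all 8 members, up to 4 called genes of each list by size of change, the listed STAT and JAK genes, up to 3 most similar genes per member (Y-linked genes and XIST left out), and neighbours within 5 kb. Some genes that this rule names are not reported here. Others named for contrast were chosen after their values were seen.

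Counts were fitted with edgeR 4.0.16 in R 4.3.3: filterByExpr (minimum count 10), TMM, 1 mean per group over 12 libraries, 8 residual degrees of freedom, quasi-likelihood test, Benjamini-Hochberg over 15810 genes. A standard error is the log2 fold change divided by the root of F. TPM was rescaled to annotated GENCODE 29 transcripts. Estimated counts summed to genes were rounded to whole numbers. Annotated transcripts held 49.9% to 55.2% of estimated counts and 31.7% to 39.7% of TPM as deposited, per library. A floor of 3 counts over a group equals 0.0498 to 0.0572 CPM. Intervals and floors cover counting error only. Alternatives were other scalings, no filter, DESeq2 1.42.0, estimated counts, the compared groups alone and each library left out. The code was tested on simulated data.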

Additional observations from a re-analysis of the deposited data

Results flagged for a closer look

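The response of IRF1 to IFN-γ differed between the lines by a test of the difference itself. The log2 fold change was 6.43 in MALME-3M and 5.35 in SK-MEL-5, a difference of 1.08 ± 0.17 (SE, edgeR adjusted p = 0.000541), and it stayed between 0.92 and 1.24 with any 1 library left out. From transcript estimates it was 0.96 (adjusted p = 0.298). Dose and medium differed with the line and cannot be told apart from it.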

How the results depend on the processing

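Of the values for single members under the alternatives, 681 kept their direction and side of the threshold, 7 were no longer called, 4 became called and 17 changed sign. From transcript estimated counts, calls over all genes were 942 in MALME-3M (2890 from gene counts), 572 in SK-MEL-5 (2060), 137 for the difference (705) and 7411 between treated lines (11346). Leaving out 1 library gave 1364 to 2111 calls in SK-MEL-5, the lowest without untreated replicate 2. Members called for the difference were 2 without the filter, 2 with DESeq2's Wald test and 0 from estimates, against 1. Members called between untreated lines were 3 to 5 with 1 library left out. The IRF1 to IRF2 ratio from estimates was 3.39 with IFN-γ and 0.0601 untreated in MALME-3M, and 2.79 and 0.111 in SK-MEL-5.

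Sign changes were all in values not called. IRF5 in MALME-3M was -0.0047 with upper-quartile scaling, -0.30 from estimates and -0.03 to 0.09 with 1 library left out. The IRF2 difference was -0.01, -0.15 and -0.05 to 0.1 under the same settings. Between untreated lines, IRF2 was -0.0011 to 0.13 and IRF3 -0.07 to 0.12 with 1 library left out, and IRF9 was 0.15 from estimates. Between treated lines, IRF2 was -0.02 from estimates and IRF9 -0.15 to 0.27 with 1 library left out. IRF8 between untreated lines became called, at -3.49 (adjusted p = 0.0422) from estimates and -4.04 (adjusted p = 0.0444) without untreated MALME-3M replicate 3. The cause of these changes was not tested. No paired analysis was possible because the labels give no replicate numbers and those used here only name libraries, and fitting compared groups alone was not run for the difference.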
